A study of Homo sapiens with 6 samples.

Results

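The transcripts of the lysosome were examined in SW480 cells, an established line of colon adenocarcinoma, after treatment with MPM-1. The genes were taken by name from the expression table of the whole experiment. They are the rows whose symbol starts with ATP6V, those named CTS plus a single letter, and 17 further lysosomal genes listed by symbol, namely LAMP1, LAMP2, GLA, GAA, GLB1, HEXA, NEU1, NPC1, NPC2, MCOLN1, PSAP, TPP1, ASAH1, SMPD1, SCARB2, TFEB and TFE3. This gave 47 of 12982 genes, all with values in the table and all tested. MPM-1, called WT4 in the sample labels, is a fluorescent small molecule made as a probe that accumulates in mitochondria. Cells labelled as wild type were treated with MPM-1 for 24 h in 3 libraries and with DMSO, the solvent control, for 24 h in the other 3, and no deletion or transgene is named. All libraries are from this 1 cell line, and the dose used for sequencing is not given in the sources used here. Nothing states that the libraries came from separate cultures, so the p-values measure the spread between these libraries, which may be technical.

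The lysosome is the acidic compartment in which cells break down proteins, lipids and sugars. Its acid interior is made by the V-ATPase, a rotary proton pump in which the cytosolic V1 sector splits ATP and the V0 sector in the membrane carries the protons. Cathepsins and other hydrolases work inside at this low pH, highly glycosylated proteins such as LAMP1 and LAMP2 line the membrane, and the transcription factors TFEB and TFE3 switch on many of these genes when they move into the nucleus.

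Each library held between 31733667 and 40269820 counts. Levels are given as CPM, the count scaled for library size with TMM factors, and as FPKM where 2 genes are compared, because only FPKM takes transcript length into account. Both are relative to the RNA of the whole culture, so fewer cells of a kind and less RNA per cell cannot be told apart. Of 12 colorectal epithelial markers, 11 had a row, with EPCAM at a mean of 380 FPKM and KRT8 at 2320 FPKM. By contrast 1 of 7 immune markers (CD14, 3.46 FPKM), 1 of 6 fibroblast markers (COL1A1, 0.281 FPKM) and none of 4 endothelial markers had one. Of the 11 epithelial markers 5 rose (45.5%) and 5 fell (45.5%) after MPM-1 at an adjusted p under 0.05, against 27.7% and 28.8% of all genes. KRT18, KRT19, CDH1, LGALS4 and KRT8 rose, by 0.42 to 0.89 on the log2 scale. CDX2 fell by 2.20 and KRT20 by 2.03, and CDX1, VIL1 and CDH17 fell by 0.47 to 0.98.

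The lysosomal genes were mostly higher after MPM-1. Of the 47, 28 rose, 6 fell and 13 were not called at an adjusted p under 0.05 (edgeR quasi-likelihood fit, Benjamini-Hochberg over the 12982 genes). The 28 are 59.6% of the members, against 27.7% of all genes tested that were called higher, and the 6 are 12.8%, against 28.8% of all genes called lower. With the stricter call, an adjusted p under 0.01 and at least a 2-fold change, 5 members were higher and none lower, or 10.6% and 0%, where the shares over all genes were 5.58% and 8.75%. At an adjusted p under 0.05, those 6 fell by less than 2-fold. The median log2 fold change of the members was 0.35, against -0.03 for all genes. In 37 of the 47 genes (78.7%) the MPM-1 libraries lay entirely above or entirely below the DMSO libraries, which held for 64.3% of all genes. The 5 members past the stricter call were CTSL, ATP6V1C2, TPP1, ATP6V1G1 and PSAP. When libraries were scaled by their size alone, the median of all genes moved to -0.18 and that of the members to 0.20, and 21 members were higher and 7 lower, where 2589 (19.9%) and 4871 of all 12982 genes were. The members' median stood 0.38 above that of all genes under both scalings. A change of scaling moves every gene by nearly the same amount, so this gap could hardly differ and is no separate check.

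**Figure D1:**
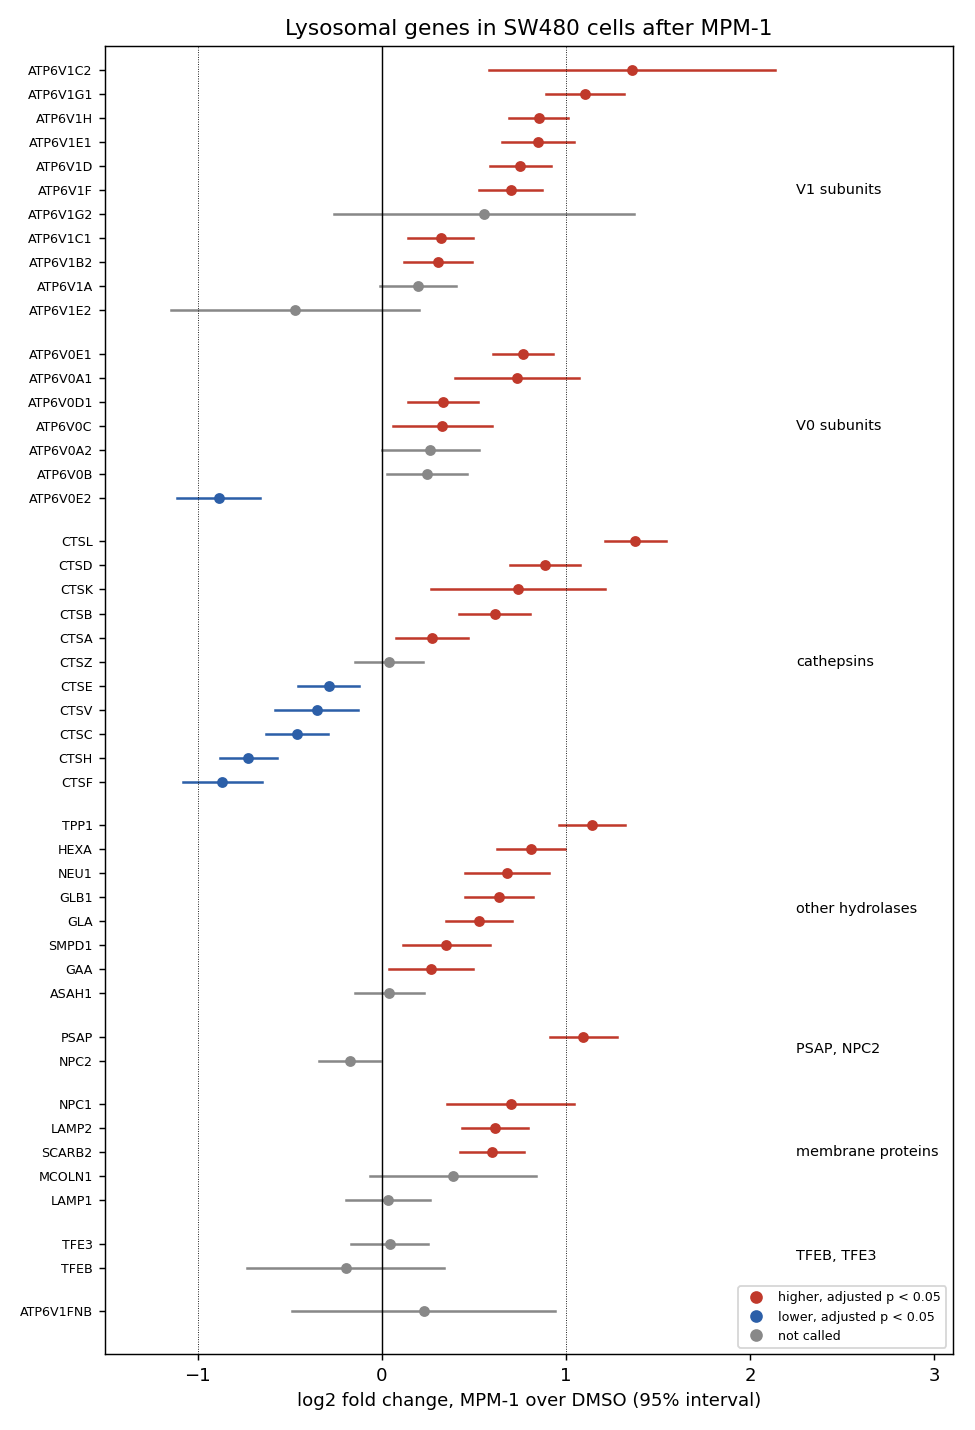
Log2 fold change of each of the 47 lysosomal genes, MPM-1 over DMSO, grouped by role, with unadjusted 95% intervals as bars. Points to the right of 0 are higher after MPM-1, red and blue mark genes called higher (28) and lower (6) at an adjusted p under 0.05, grey marks the 13 not called, and dotted lines mark a 2-fold change.

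Among the V1 subunits, 8 of 11 rose (72.7%) and none fell, against 27.7% and 28.8% of all genes. Those that rose hold the peripheral stalks, the central stalk, the regulatory cap and part of the catalytic ring. ATP6V1G1 (ENSG00000136888, chromosome 9, 114587746 to 114598373 in GENCODE 29 on GRCh38), which encodes subunit G of the peripheral stalk, was at 76.5, 62.1 and 74.4 CPM in the DMSO libraries and at 157, 158 and 143 CPM in the MPM-1 libraries. The groups were far apart, with a log2 fold change of 1.10 ± 0.09 (SE, n = 3 libraries each, adjusted p = 1.48e-05 from edgeR). ATP6V1F (chromosome 7, 128862826 to 128865844), which encodes subunit F of the central stalk, had the highest mean FPKM of all members over the 6 libraries (319, against 312 for PSAP, which was higher after MPM-1 at a mean of 410), at 272, 246 and 259 FPKM in DMSO and 366, 384 and 386 FPKM after MPM-1. Its log2 fold change on the counts was 0.70 ± 0.08 (adjusted p = 5.52e-05 from edgeR). ATP6V1H, ATP6V1E1 and ATP6V1D, for the regulatory cap, the other stalk protein and the rotor, rose by 0.85, 0.85 and 0.75 on the log2 scale.

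The catalytic ring is built of subunits A and B. ATP6V1B2, the noncatalytic ring subunit B, rose by 0.31 ± 0.08, and ATP6V1A, the subunit that splits ATP, had a log2 fold change of 0.20 (95% interval -0.01 to 0.40) and was not called. ATP6V1A was at 104, 116 and 100.9 CPM in DMSO and at 130, 110 and 129 CPM after MPM-1, so the groups overlapped. It was called higher without MPM-1 replicate 2 (log2 fold change 0.30), and ATP6V1B2 was not called with scaling by library size alone (0.16). The pair ATP6V1G2 and ATP6V1E2, paralogs best known from brain and testis, had means of 0.607 and 0.845 FPKM over all libraries and were not called.

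ATP6V1C2 (chromosome 2, 10721100 to 10785110), the second gene for subunit C, varied widely after MPM-1. It was at 18.7, 15.4 and 16.6 CPM in DMSO and at 70.6, 38.6 and 20.8 CPM in MPM-1 replicates 1, 2 and 3. All MPM-1 libraries were above all DMSO libraries, but they differed more than 3-fold among themselves. The log2 fold change was 1.36 ± 0.35 (adjusted p = 0.00791 from edgeR) and 0.83 (adjusted p = 0.0106) without MPM-1 replicate 1. Its exons share 1033 bases with those of PDIA6 on the other strand, so reads of the 2 genes could mix if counting ignored strand. PDIA6 had a mean of 650 CPM and a log2 fold change of 0.11 (adjusted p = 0.308 from edgeR), and its part in the value of ATP6V1C2 was not tested. ATP6V1C1, the widespread gene for subunit C, rose by 0.32 ± 0.08 and had less spread. In FPKM, ATP6V1C2 made up 33.4% ± 2.19 (SD, n = 3) of the summed level of the pair in DMSO, and 61.0%, 42.3% and 28.7% in the MPM-1 libraries.

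In the V0 sector 4 of 7 subunits rose (57.1%) and 1 fell (14.3%), against 27.7% and 28.8% of all genes. ATP6V0E1 (chromosome 5, 172983757 to 173035445), a small membrane subunit e, was at 77.8, 71.6 and 75.6 CPM in DMSO and at 129, 131 and 123 CPM after MPM-1, a log2 fold change of 0.77 ± 0.07 (adjusted p = 2.44e-05 from edgeR). Its paralog ATP6V0E2 (chromosome 7, 149872968 to 149891204) went the other way, from 38.2, 47.7 and 44.0 CPM to 24.3, 23.2 and 22.8 CPM. ATP6V0E2 fell by 0.89 ± 0.10 on the log2 scale (adjusted p = 8.03e-05 from edgeR) and is the largest fall among the members. Its exons share 864 bases with the antisense gene ATP6V0E2-AS1, which is not analysed here. In FPKM, ATP6V0E2 made up 26.7% ± 3.26 of the pair in DMSO and 10.6% ± 0.945 after MPM-1 (SD, n = 3 each), with no overlap between the groups.

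ATP6V0A1, the subunit a that forms the proton channel together with the c ring, was at 29.7, 24.9 and 25.1 CPM in DMSO and at 55.2, 40.3 and 37.1 CPM after MPM-1. It rose by 0.74 ± 0.15 on the log2 scale (adjusted p = 0.00234 from edgeR), and by 0.56 without MPM-1 replicate 1. In FPKM the groups of ATP6V0A1 overlapped, with 9.16, 6.60 and 7.715 in DMSO and 13.1, 10.5 and 8.75 after MPM-1. Its paralog ATP6V0A2, associated with the Golgi, had a log2 fold change of 0.26 (95% interval -0.0003 to 0.53) and was not called. TCIRG1, the third gene for this subunit, does not carry the ATP6V name and was looked up after the values were seen. It had a mean of 25.3 FPKM, against 9.31 FPKM for ATP6V0A1, and a log2 fold change of 0.20 (adjusted p = 0.143 from edgeR).

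The most abundant V0 transcript, ATP6V0B of the proton-carrying ring, had 234, 182 and 205 CPM in DMSO and 251, 232 and 253 CPM after MPM-1. The groups overlapped and its log2 fold change of 0.25 had an adjusted p of 0.0533 (edgeR). It was called at 0.34 without DMSO replicate 1 and at 0.31 without MPM-1 replicate 2. ATP6V0C, the other ring subunit, and ATP6V0D1, which couples the sectors, rose by 0.33 each. Neither was called with scaling by library size alone or with limma on FPKM. ATP6V0C also lost its call on omitting replicate 2 or 3 of DMSO, or 1 or 3 of MPM-1 (0.23 to 0.33). Of the 1498 exonic bases of ATP6V0C, 862 are shared with AC093525.2 and 218 with AC093525.1, both on the same strand. The part of these overlaps in its value was not tested. ATP6V1FNB, whose name marks it only as a neighbor of ATP6V1F, had a mean of 0.527 FPKM and a log2 fold change of 0.23 (adjusted p = 0.565 from edgeR).

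**Figure D2:**
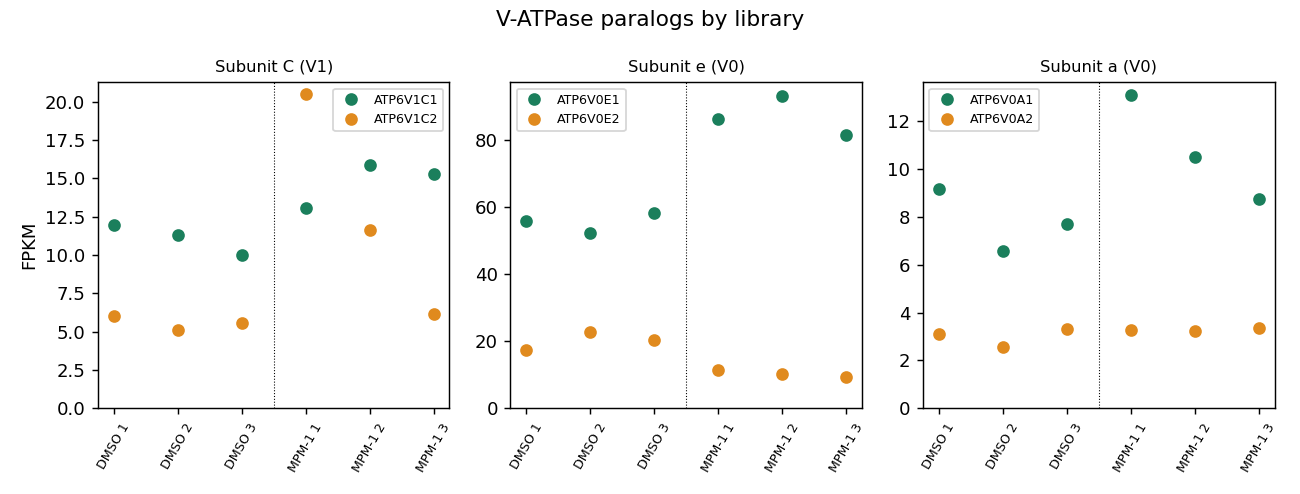
FPKM of V-ATPase paralog pairs in each of the 6 libraries, with DMSO to the left of the dotted line and MPM-1 to the right. ATP6V0E1 is higher and ATP6V0E2 lower in every MPM-1 library, while ATP6V1C2 spreads widely among the MPM-1 libraries.

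Summed per length, the 11 V1 genes went from 563 ± 24.6 to 872 ± 13.1 FPKM (SD, n = 3 each), a ratio of 1.55, and the 7 V0 genes from 408 ± 26.7 to 465 ± 16.0 FPKM, a ratio of 1.14. In both sums every MPM-1 library was above every DMSO library. The exact two-sided permutation test gave p = 0.1 for each, which is the smallest value 3 libraries against 3 can give. The largest parts of the V1 rise came from ATP6V1F (259 to 379 FPKM), ATP6V1E1 (117 to 194) and ATP6V1G1 (67.1 to 130). The ring genes ATP6V1A (23.8 to 24.5 FPKM) and ATP6V1B2 (21.7 to 24.3) added little.

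The cathepsins divided, with 5 of 11 higher, 5 lower and CTSZ not called. That is 45.5% in each direction, against 27.7% higher and 28.8% lower over all genes. CTSL (ENSG00000135047, chromosome 9, 87725519 to 87731393), a broad endopeptidase of the cysteine class, was at 73.8, 72.7 and 66.9 CPM in DMSO and at 187, 184 and 183 CPM after MPM-1. The libraries of each group were close together, and the log2 fold change of 1.38 ± 0.07 (adjusted p = 9.55e-07 from edgeR) was the largest of all members. CTSL was also past the stricter call under every alternative tried. CTSD (chromosome 11, 1752752 to 1764573), the main aspartic protease of the lysosome, went from 323, 297 and 272 CPM to 561, 513 and 574 CPM. Its log2 fold change was 0.89 ± 0.08 (adjusted p = 2.71e-05 from edgeR). The exons of CTSD share 1304 bases with AC068580.4 on the same strand, a gene with a mean of 28.1 CPM, and its part in the value of CTSD was not tested. CTSB, an abundant cysteine protease, was at 497, 432 and 424 CPM in DMSO and at 710, 634 and 725 CPM after MPM-1, a log2 fold change of 0.61 ± 0.09. In FPKM its groups overlapped, with 184, 153 and 124 in DMSO and 175, 218.5 and 217 after MPM-1. Limma on log2(FPKM + 1) gave CTSB 0.41 (adjusted p = 0.037 from limma).

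Of the cathepsins that fell, CTSF (chromosome 11, 66563463 to 66568841), a cysteine protease, was at 43.5, 41.2 and 41.3 CPM in DMSO and at 25.5, 22.2 and 21.4 CPM after MPM-1. It fell by 0.86 ± 0.10 on the log2 scale (adjusted p = 6.15e-05 from edgeR). CTSH (chromosome 15, 78921058 to 78949574), an aminopeptidase, went from 125, 122 and 120 CPM to 75.3, 72.9 and 74.1 CPM, a fall by 0.72 ± 0.07 (adjusted p = 2.44e-05 from edgeR). In both genes the groups lay far apart. CTSC, which activates the granule proteases of immune cells, fell by 0.46, CTSV, the closest relative of CTSL, by 0.35, and CTSE, an aspartic protease of gastric and other epithelia, by 0.29. By class, 3 of 8 cysteine cathepsins rose and 4 fell, 1 of 2 aspartic cathepsins rose and 1 fell, and the serine carboxypeptidase CTSA rose by 0.27. These few genes are to be read against 27.7% higher and 28.8% lower over all genes.

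The weaker calls depended on the scaling or on single libraries. CTSA was not called with scaling by library size alone, on FPKM, or on omitting replicate 3 of DMSO or replicate 1 or 3 of MPM-1 (0.22 to 0.29). CTSK, the collagen-degrading protease of osteoclasts, was at only 4.15 ± 0.885 CPM in DMSO and 6.92 ± 0.533 CPM after MPM-1 (SD, n = 3 each), and its call was lost without DMSO replicate 3 (0.57). The call of CTSV was lost without MPM-1 replicate 2 (-0.25). Within the summed FPKM of the 11 cathepsins, CTSL and CTSD went from 6.74% ± 0.344 and 22.4% ± 0.713 in DMSO to 12.5% ± 0.604 and 31.7% ± 1.23 after MPM-1 (SD, n = 3 each). CTSH went from 8.92% ± 0.679 to 3.93% ± 0.128. The sum itself went from 659 ± 46.3 to 811 ± 35.9 FPKM, a ratio of 1.23.

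**Figure D3:**
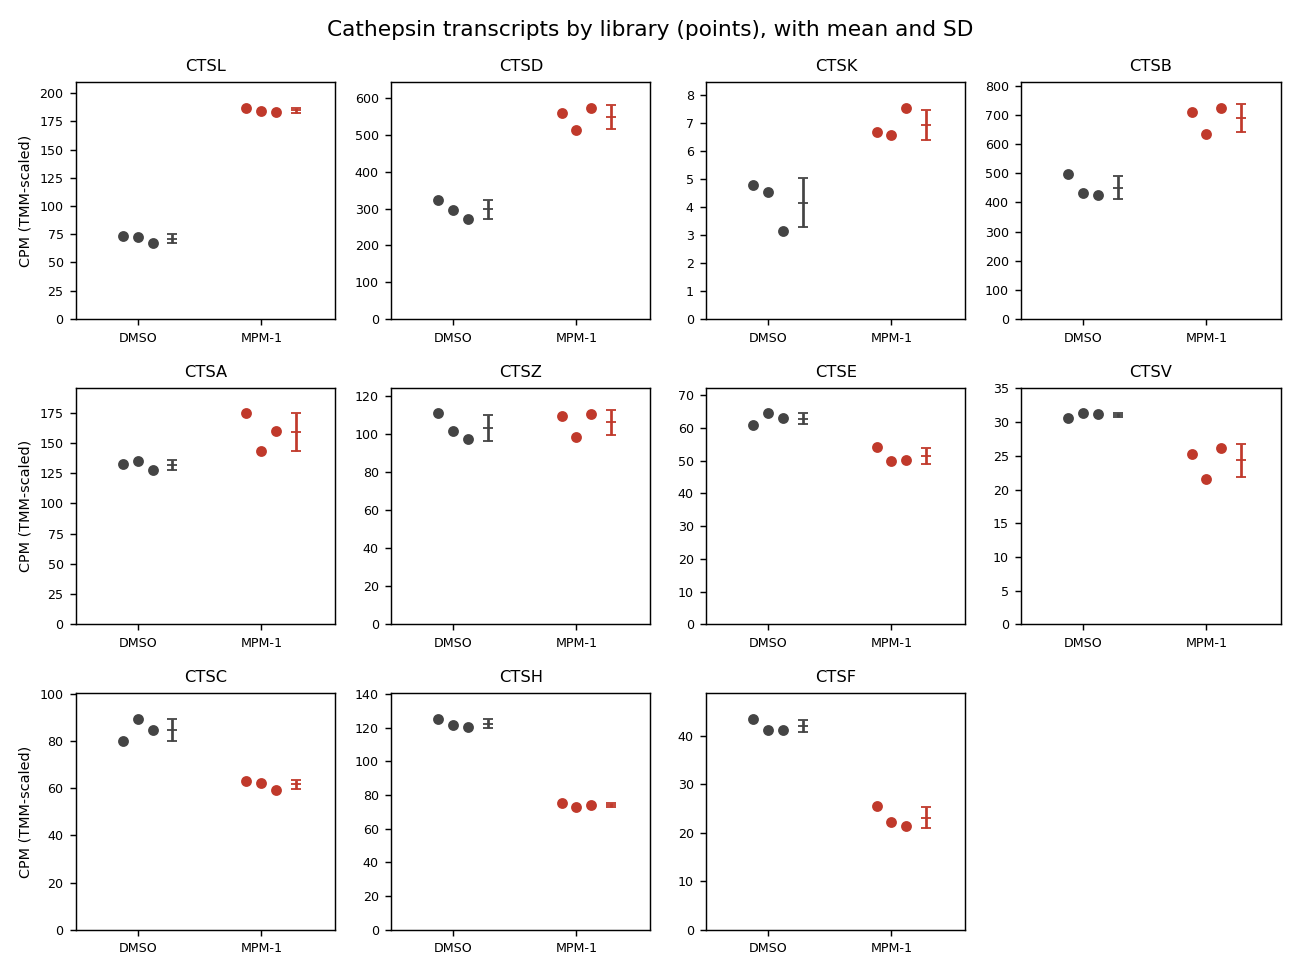
CPM of the 11 cathepsin genes in each library (points), with the mean and SD of 3 libraries beside them, each panel from 0. CTSL, CTSD, CTSK, CTSB and CTSA are higher after MPM-1, CTSZ overlaps, and CTSE, CTSV, CTSC, CTSH and CTSF are lower.

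Of the 8 other hydrolases, 7 rose (87.5%) and none fell, against 27.7% and 28.8% of all genes. TPP1 (chromosome 11, 6612763 to 6619485), a tripeptidyl peptidase whose loss causes a childhood neuronal storage disease, was at 62.7, 59.0 and 56.7 CPM in DMSO and at 138, 122 and 134 CPM after MPM-1. Its log2 fold change was 1.14 ± 0.08 (adjusted p = 4.87e-06 from edgeR). HEXA (chromosome 15, 72340919 to 72376476), the alpha subunit of beta-hexosaminidase, which degrades GM2 ganglioside, went from 91.8, 82.4 and 79.8 CPM to 155, 141 and 149 CPM, a log2 fold change of 0.81 ± 0.08 (adjusted p = 3.67e-05 from edgeR). The exons of TPP1 and HEXA share 756 and 617 bases with AC091564.7 and AC009690.1 on the same strand, and the part of these overlaps was not tested. The sialidase NEU1, the beta-galactosidase GLB1 and the alpha-galactosidase GLA rose by 0.68, 0.64 and 0.53.

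SMPD1, the acid sphingomyelinase, and GAA, which degrades glycogen, rose by 0.35 and 0.27, the smallest rises of the group. Neither was called with scaling by library size alone, on FPKM, or on omitting DMSO replicate 2 or 3 or MPM-1 replicate 3 (0.28 to 0.33 for SMPD1), and GAA was also lost without MPM-1 replicate 1 (0.19). ASAH1, the acid ceramidase, had the highest mean of the group over the 6 libraries at 42.0 FPKM. Its mean of 38.8 FPKM after MPM-1 was below those of HEXA (45.2) and GLB1 (42.1). The HEXA mean rests on MPM-1 replicate 1, with 65.4, 35.2 and 35.1 FPKM against 39.7, 35.8 and 40.8 FPKM for ASAH1. ASAH1 was at 88.5, 101.1 and 96.4 CPM in DMSO and at 90.6, 100.7 and 103 CPM after MPM-1, with a log2 fold change of 0.04 (95% interval -0.15 to 0.23).

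The soluble helper proteins differed. PSAP (chromosome 10, 71816298 to 71851375), the precursor of the saposins that present sphingolipids to hydrolases, was at 650, 588 and 563 CPM in DMSO and at 1355, 1182 and 1310 CPM after MPM-1, a log2 fold change of 1.09 ± 0.08 (adjusted p = 6.43e-06 from edgeR). NPC2, which binds cholesterol in the lumen, had 150, 146 and 154 CPM in DMSO and 141, 130 and 128 CPM after MPM-1. The groups did not overlap, but the log2 fold change of -0.17 was not called (adjusted p = 0.0669 from edgeR). NPC2 was called lower with scaling by library size alone (-0.33) and with limma on FPKM at either pseudocount or without the filter (-0.36 in each). With these 2, the hydrolases summed to 578 ± 5.15 FPKM in DMSO and 802 ± 43.7 FPKM after MPM-1 (SD, n = 3 each), a ratio of 1.39.

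Of the 5 membrane proteins, 3 rose (60%) and none fell, against 27.7% and 28.8% of all genes. NPC1, which takes cholesterol from NPC2 and exports it, was at 61.7, 45.7 and 45.6 CPM in DMSO and at 93.6, 66.1 and 88.5 CPM after MPM-1, a log2 fold change of 0.70 ± 0.15 (adjusted p = 0.00362 from edgeR). LAMP2 (chromosome X, 120427827 to 120469365), also the receptor of chaperone-mediated autophagy, went from 77.2, 80.0 and 72.4 CPM to 122, 109 and 121 CPM (0.61 ± 0.08, adjusted p = 0.00016 from edgeR). SCARB2, which carries beta-glucocerebrosidase to the lysosome, rose by 0.60 ± 0.08. LAMP1, the most abundant of the group at 61.4 FPKM, was at 177, 173 and 158 CPM in DMSO and at 194, 149 and 177 CPM after MPM-1, and its log2 fold change of 0.03 had a 95% interval of -0.19 to 0.26. MCOLN1, a calcium channel of the lysosome, was at 4.80 ± 0.904 CPM in DMSO and 6.28 ± 0.43 CPM after MPM-1 and was not called (0.39, adjusted p = 0.128 from edgeR). The summed level of the 5 genes had a ratio of 1.20, and the exact permutation p for this sum, the cathepsins and the hydrolases was again 0.1, the smallest possible.

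The factors that control these genes were not called. TFEB was at 10.7, 5.53 and 7.13 CPM in DMSO and at 7.06, 6.47 and 6.85 CPM after MPM-1, a log2 fold change of -0.20 with a 95% interval of -0.73 to 0.34. Its direction turned without DMSO replicate 1 (0.10). TFE3, at the higher level of 23.1 FPKM against 3.02 FPKM for TFEB, was at 84.6, 80.6 and 72.8 CPM in DMSO and at 82.9, 73.6 and 88.5 CPM after MPM-1 (0.04, interval -0.17 to 0.25). Transcript levels do not show where these proteins were in the cell.

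TFEB and TFE3 bind the E-box CACGTG, and the CLEAR element of lysosomal genes is built on its extended form TCACGTGA. Both were searched in RefSeq promoters (GRCh38.p14, 250 bases before to 50 after the start), of which 34 of the 47 members had one. Only 1 promoter was searched per gene. Of the 28 members that rose 19 had one, and PSAP, HEXA, CTSB and LAMP2 were among those without. Both motifs are palindromes, so 1 search covers both strands, and each TCACGTGA also counts as an E-box. CACGTG was in 11 of the 34 (32.4%), against 10.3% of the 9595 promoters of tested genes and 7.43% of all 27305. TCACGTGA was in 6 of 34 (17.6%), against 1.98% and 1.04%. The members were listed as lysosomal genes and this element is one of such genes. A higher share could come from the list alone and says nothing about MPM-1. By call, CACGTG was in 6 of 19 promoters of members that rose, 2 of 6 that fell and 3 of 9 not called, and TCACGTGA in 4 of 19, none of 6 and 2 of 9. Such matches are letters in a window and do not show binding.

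The stretches upstream of the start are shown for members of each kind whose window lies before the GENCODE gene or ends at its first base, with 1 E-box in capitals and 5′ to 3′ on the strand of the gene. ATP6V1G1, NEU1 and GAA rose, ATP6V0E2 fell, and LAMP1 and MCOLN1 were not called. They lie at chr9:114587681-114587746 (plus strand, ATP6V1G1), chr17:80101475-80101540 (plus, GAA), chr6:31862912-31862977 (minus, NEU1), chr7:149872866-149872931 (plus, ATP6V0E2), chr13:113297181-113297238 (plus, LAMP1) and chr19:7522553-7522618 (plus, MCOLN1).
ATP6V1G1: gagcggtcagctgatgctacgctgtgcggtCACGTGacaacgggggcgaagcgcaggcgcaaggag
GAA: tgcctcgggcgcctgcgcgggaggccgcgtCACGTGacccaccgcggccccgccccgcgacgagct
NEU1: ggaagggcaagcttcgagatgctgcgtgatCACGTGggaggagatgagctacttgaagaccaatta
ATP6V0E2: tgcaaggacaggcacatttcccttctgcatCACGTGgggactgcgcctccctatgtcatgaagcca
LAMP1: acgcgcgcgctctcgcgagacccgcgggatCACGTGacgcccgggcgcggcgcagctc
MCOLN1: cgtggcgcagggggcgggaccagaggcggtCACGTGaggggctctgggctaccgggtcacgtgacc
The MCOLN1 stretch holds a second E-box, also part of TCACGTGA, in lower case nearer the start. The E-box in capitals ends 52 bases before the start in ATP6V1G1, 70 in GAA, 120 in NEU1, 66 in ATP6V0E2, 22 in LAMP1 and 35 in MCOLN1. In ATP6V1G1, GAA, LAMP1 and MCOLN1 the shown motif is part of TCACGTGA, and in NEU1 and ATP6V0E2 it is not. LAMP1 held 6 E-boxes in its promoter window, the most of the members, and its transcript was among those not called.

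Other lysosomal genes were then read from lists written from general knowledge. Over 7 such lists, 212 of 230 genes were tested, and 110 rose (51.9%) and 33 fell (15.6%), to be read against the same 27.7% and 28.8% over all genes. Their median log2 fold change was 0.26. Accessory and regulatory genes of the V-ATPase, not all of them helpers of its assembly, had 6 of 12 higher and 1 lower. Among them CCDC115, an assembly factor of V0, went from 19.7 ± 1.07 to 37.5 ± 1.78 CPM (0.93), DMXL2, which joins the sectors, had 0.72, TLDC2 had 0.44, and VMA21, a V0 assembly chaperone, fell by 0.40.

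In further hydrolases and their activators, 19 of 41 rose (46.3%) and 9 fell (22%), against 27.7% and 28.8% of all genes. IDUA, which degrades dermatan and heparan sulfate, went from 5.35 ± 0.891 to 16.8 ± 2.18 CPM (1.65), AGA, which cleaves the sugar from asparagine, from 11.1 ± 0.655 to 31.1 ± 3.68 CPM (1.49), and the exonuclease PLD3 had 0.91. HYAL1, a hyaluronidase, fell from 15.1 ± 0.826 to 4.96 ± 1.15 CPM (-1.60, adjusted p = 0.00011 from edgeR), followed by the ribonuclease RNASET2 (-0.97) and GGH (-0.88), which trims folates.

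Among further membrane proteins, 21 of 40 rose (52.5%) and 7 fell (17.5%), against 27.7% and 28.8% of all genes. LAMP3, a LAMP relative known from dendritic cells and from stress responses, was at 0.697, 2.13 and 1.98 CPM in DMSO and at 48.2, 40.9 and 44.4 CPM after MPM-1, a log2 fold change of 4.76 ± 0.29 (adjusted p = 2.27e-06 from edgeR). It stood far above the changes of LAMP1 and LAMP2. TMEM106B went from 99.9 ± 5.80 to 245 ± 7.82 CPM (1.29) and PIP4P2, a phosphoinositide phosphatase, from 15.1 ± 0.959 to 36.8 ± 5.14 CPM (1.29). LAPTM5 (-1.37), the transporter ABCA2 (-1.02) and SLC38A9 (-0.57), an arginine sensor for mTORC1, had the largest falls.

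In sorting and fusion 28 of 57 rose (49.1%) and 6 fell (10.5%), against 27.7% and 28.8% of all genes. CLN8 (1.39) and LYST (1.24) were among the largest rises, with CLN6 (-0.62), HPS4 (-0.62) and AP1B1 (-0.52) the largest falls. CLN8 was uneven, with 82.2, 37.1 and 58.6 CPM after MPM-1. Among regulators of mTORC1 and of the TFEB family, 11 of 25 rose (44%) and 5 fell (20%), to be read against the same shares of all genes. RRAGC, a Rag GTPase that holds mTORC1 and TFEB at the lysosome, went from 19.95 ± 2.19 to 63.8 ± 5.57 CPM (1.68), and the calcineurin genes PPP3CA and PPP3CC had 0.87 and 0.83. RPTOR (-0.66), LAMTOR2 (-0.57) and LAMTOR4 (-0.47) had the largest falls in that list.

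Inhibitors of cathepsins and related proteases had 7 of 17 genes tested, with 5 higher (71.4%) and none lower, against 27.7% and 28.8% of all genes. SERPINA3 was at 1, 2 and 10 counts in the DMSO libraries and at 170, 163 and 179 counts after MPM-1 (5.55 ± 0.52 on the log2 scale), a value that rests on very few DMSO counts. The lowest row total of any gene was 115 counts, so its row, and its place among the 5, rest on the MPM-1 libraries. SERPINB8 went from 7.65 ± 0.78 to 53.0 ± 7.85 CPM (2.79), and SERPINB1, an inhibitor of neutrophil proteases and cathepsin G, from 334 ± 14.0 to 753 ± 91.5 CPM (1.17). Cathepsin G is not among the members, so these rises are not all in inhibitors of the cathepsins measured here. The cystatin CSTB, which blocks cysteine cathepsins, rose by 0.20 (adjusted p = 0.0445 from edgeR) and SERPINB6 by 0.24 (adjusted p = 0.0293). CST3 (0.18) and SERPINB9 (-0.12) were not called.

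**Figure D4:**
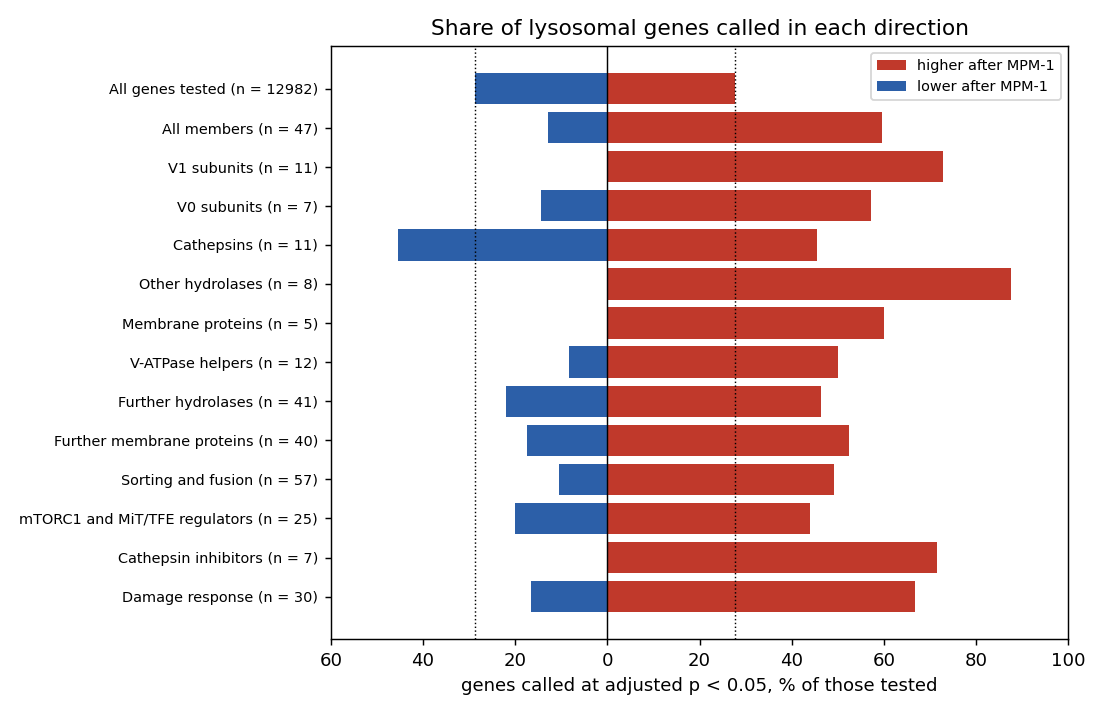
Percent of genes called higher (red, to the right) and lower (blue, to the left) at an adjusted p under 0.05 in the lysosomal groups and lists, with the number tested. Dotted lines mark the shares over all genes tested, 27.7% higher and 28.8% lower, and the cathepsins alone among the member groups pass the line on both sides. The list of cathepsin inhibitors also holds inhibitors of related proteases.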

How the data were processed

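RNA was sequenced from 6 libraries of SW480 cells, 3 with DMSO and 3 with MPM-1, grouped by their titles. The authors deposited 1 table with a whole-number count and an FPKM per gene and library. It also holds their own adjusted p-value and log2 fold change per gene, which were not used. Per the labels, HISAT2 and DESeq2 were used and the build was mm10. That is a mouse build, whereas 12127 of 12982 rows carry human Ensembl identifiers, so positions were taken from GENCODE 29 (GRCh38), in which all 47 members were found. The counter, its use of strand and the filter on genes are not given in the sources used here. The lowest row total was 115 counts.

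Tools were DESeq2 1.42.0, limma 3.58.1 and edgeR 4.0.16 in R 4.3.3. The quasi-likelihood test of edgeR with TMM scaling was fitted to all genes without covariates, with Benjamini-Hochberg adjustment over them. A standard error is the log2 fold change divided by the root of its F statistic, and 95% intervals are unadjusted. In simulated counts for this comparison over 12982 genes, 12 of 50 genes changed by 0.5 on the log2 scale were recovered. So were 40 of 50 changed by 1 and 97 of 100 changed by 2, none with the wrong sign. Of the 161 genes called in the simulation, 12 had not been changed. The simulation changed far fewer genes than the 3596 higher and 3740 lower called in the data, so its rates do not carry over.

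The members and lists were chosen with earlier results of these data known. Members named with every library were those past the stricter call, the 2 largest rises and falls and the most abundant gene of each role, and TFEB and TFE3. ATP6V1A, ATP6V1C1, CTSB, NPC2 and a few others were added after their values were seen. In each list the 3 largest rises and falls were named, except 1 gene that is not reported here, and the same 6 libraries entered every fit. Exon overlaps between genes were read from GENCODE 29. Summed FPKM values were compared by an exact permutation test. Alternatives were DESeq2's size factors or test, scaling by library size alone or without mitochondrially encoded genes, a mean of at least 50 counts, limma on log2(FPKM + 1) or log2(FPKM + 0.1) with a mean of at least 1 FPKM or no filter, the replicate number as a block, and each library left out.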

Additional observations from a re-analysis of the deposited data

How the results depend on the processing

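Of the 28 members called higher, 19 kept their call under all 15 alternatives, as did 5 of the 6 called lower (all but CTSV), and none of these 34 changed direction. Scaling by library size alone left 1 member higher and 2 lower at 2-fold, gave a median of 0.20 over the members, and called 73 pathway genes outside the members higher and 50 lower, where 2589 (19.9%) and 4871 of all 12982 genes were. Limma on FPKM left 1 member higher at 2-fold with each pseudocount and without the filter, and 1 lower with a pseudocount of 0.1, while without the filter the median was 0.18 and 73 pathway genes were higher, with 19.2% of all genes higher. With 1 library left out, 23 to 30 members were higher, 5 to 6 lower, 4 to 5 higher and 0 lower at 2-fold, and the median ranged from 0.33 to 0.43. The pathway genes ranged from 88 to 105 higher and 28 to 35 lower. Rescaling FPKM to the same total gave ratios of 1.64 for V1 and 1.47 for hydrolases and cofactors. Rescaling FPKM by TMM gave 1.72 for V1, 1.27 for V0, 1.37 for cathepsins, 1.54 for hydrolases and cofactors and 1.33 for membrane proteins. The cause of these shifts was not tested, other than that TMM and library size differ by a constant per library.

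Genes near 0 that were not called changed direction. CTSZ had -0.11 with library size alone and with limma on FPKM at either pseudocount or without the filter, TFE3 had -0.11, -0.11 and -0.12, LAMP1 had -0.12, -0.12 and -0.13, and ASAH1 had -0.11, -0.21 and -0.22 under the same settings. With 1 library left out, CTSZ ranged from -0.0019 to 0.11, TFE3 from -0.016 to 0.14, LAMP1 from -0.036 to 0.16, ASAH1 from -0.01 to 0.11, ATP6V1FNB from -0.036 to 0.38 and TFEB from -0.39 to 0.10. The replicate block called 29 members higher and 6 lower, with a median of 0.35, and added ATP6V0B. Same-numbered libraries of the 2 treatments correlated by 0.021, 0.11 and -0.074 in their deviations, so the numbers were not taken to pair them. At this depth, members under 1 FPKM (ATP6V1G2, ATP6V1E2 and ATP6V1FNB) had wider intervals than the other members not called.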

Other observations

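Genes known from the response to damaged lysosomes were read from a list of 32, of which 30 were tested. Of these, 20 rose (66.7%) and 5 fell (16.7%), against 27.7% and 28.8% of all genes. Damage to lysosomes was not measured, so the transcripts do not show whether it occurred. CHMP3 and CHMP4A, of the ESCRT machinery that seals membranes, had the largest rises, CHMP3 from 33.7 ± 4.71 to 74.4 ± 2.14 CPM (log2 fold change 1.14 ± 0.11) and CHMP4A with 0.97. TBC1D15, which acts in the re-shaping of lysosomes after injury, had 0.80. The galectins, which bind sugars exposed in broken membranes, differed, with LGALS3 at 0.55, LGALS8 at 0.55 and LGALS1 at 0.26, while LGALS9 fell from 1.38 to 0.41 CPM (-1.74 ± 0.39). The LGALS9 value rests on few counts, 56, 49 and 52 in DMSO and 15, 8 and 16 after MPM-1. FBXO27 (-0.90) and PDCD6 (-0.43) were the next largest falls. PI4K2A, the lipid kinase that begins the repair of leaky lysosomes, and ATG2A, which transfers lipids, had 0.73 and 0.72. VCP, which helps to clear damaged lysosomes, fell by 0.30, and its cofactors PLAA and UBXN6 had 0.79 and 0.44.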
